A study of Arabidopsis thaliana with 24 samples.

Results

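In rosettes of 4-week-old Arabidopsis thaliana, 41 of 22746 probe sets had a mean in wild-type plants sprayed with water that was at least 1 log2 unit above those of every mutant and every BTH-treated group. Gene expression was measured on 24 Affymetrix ATH1 arrays, in 6 groups of 4 that the labels call biological replicates. Wild-type Col-0 (Col here) and mil4 plants received water or 300 µM BTH, and sid2 and mil4 sid2 plants received water alone, all as a spray 2 days before the harvest. BTH (benzothiadiazole) is a synthetic compound that switches on the same defences as the hormone salicylic acid. mil4 is a mutation in MILDEW-INDUCED LESIONS 4, which the title of the series places in the salicylic acid response, and sid2 is a mutation in ICS1, which encodes isochorismate synthase, the main source of salicylic acid after infection. The labels state neither the alleles nor how many plants made up a replicate, so p-values measure only the spread between these arrays.

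Levels are given as log2(intensity + 16), on which 1 unit is a 2-fold difference in intensity for bright probe sets and more than that for dim ones, so that folds of dim members are understated, and a level of 5 stands for an intensity of 16. The 41 members were chosen by the group means of these same arrays: the Col water mean had to be at least 7, and at least 1 above each of the 5 other group means. The distance from Col water to the nearest other group is called the margin. Of the members, 16 carry 1 gene name, 1 probe set (262259_s_at) carries several, and 24 have no gene name in the annotation used and are given by their probe-set ID. All contrasts of Col water with another group entered the choice and are described without a test. Contrasts among the 5 other groups did not enter it, beyond the common upper limit that the choice set on all 5, and these were tested.

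Several of the named members belong to the fast stress-signalling layer of the leaf or to the machinery of the cell wall. ORA47 encodes a transcription factor of the AP2/ERF family with a role in making jasmonate and abscisic acid, and STZ (also ZAT10) encodes a zinc finger repressor. Transcripts of both are known to rise quickly and briefly after touch, wounding, cold or salt. PUB25 encodes a plant U-box ubiquitin ligase, AFR an F-box protein of phytochrome A signalling, EXPB1 a beta-expansin, which loosens cell walls, and GH9C2 a glycosyl hydrolase of family 9, the family of plant endoglucanases. AT3G21670 encodes NPF6.4, a member of the NRT1/PTR transporter family.

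No probe set could be assigned to ICS1, by symbol, synonym or gene ID, or to MIL4, by name, in the annotation used, so the genotypes were not checked here. Markers and list genes are called measured here where the annotation used gave them a probe set with 1 gene name. Others may lie among the probe sets without a name. RCA, the leaf gene of Rubisco activase and the 1 measured of 11 mesophyll markers, had intensities of 19077 to 33216 on the 24 arrays. The 2 measured of 8 root markers summed to 422.1 to 966.6 and the 3 measured of 7 guard cell markers to 227.0 to 521.6. No measured marker was a member. The guard cell sum was 396.6 to 479.5 in Col water and lower, without overlap, in Col with BTH (227.0 to 365.8), while the root sum overlapped between all groups and Col water, and the part of these in the members' levels was not tested. Array medians ran from 151.9 to 185.0. The GAPDH 3′ to 5′ ratio, which reflects how intact the RNA was, ran from 0.699 to 0.966 in Col water, 0.792 to 1.12 in Col with BTH, 0.651 to 1.65 in mil4 water, and 0.729 to 1.01 in mil4 with BTH, and averaged 1.16 ± 0.06 (SD, n = 4) in sid2 and 1.09 ± 0.02 in mil4 sid2. It overlapped between Col water and 3 of the other groups and was higher on all sid2 and mil4 sid2 arrays, and its part in the levels was not tested. The sid2 and mil4 sid2 arrays were also hybridized on a day of their own, so day and the sid2 genotypes cannot be told apart in comparisons with Col.

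ORA47 had the widest margin. Its intensities were 2131.7, 2012.7, 2247.6 and 3504.6 on the 4 Col water arrays, and no other array exceeded 404.6. On the log2 scale its mean was 11.25 ± 0.36 (SD, n = 4) in Col water, 7.73 ± 0.85 in Col with BTH, 6.78 ± 0.32 in mil4 water, 6.64 ± 0.38 in mil4 with BTH, 7.68 ± 0.36 in sid2 and 7.08 ± 0.21 in mil4 sid2. Col water thus stood 11.4-fold above Col with BTH and 22.1-fold above mil4 water. The 4 Col with BTH arrays were spread widely, at 8.72, 6.79, 7.31 and 8.12 for replicates 1 to 4.

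STZ was also high in both BTH groups. Its levels were 11.69, 11.72, 11.40 and 11.54 in Col water, 11.33, 9.54, 10.22 and 10.36 in Col with BTH, and 10.40, 10.67, 10.96 and 10.05 in mil4 with BTH. It was far lower in the 3 water-treated mutants, at 8.31 to 9.35 in mil4, 8.41 to 9.26 in sid2 and 8.85 to 9.11 in mil4 sid2. Col BTH replicate 1 lay just under the lowest Col water array, and the other Col BTH arrays lay clearly below it.

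PUB25, the U-box ligase gene, was tight in Col water and low in every other group. Its Col water levels were 9.09, 9.21, 9.24 and 9.30, with a mean of 9.21 ± 0.09 (SD, n = 4). The means of the other groups were 7.88 ± 0.31 in Col with BTH, 7.34 ± 0.36 in mil4 water, 7.17 ± 0.08 in mil4 with BTH, 7.30 ± 0.31 in sid2 and 7.26 ± 0.55 in mil4 sid2, and no array of these groups exceeded 8.07. AFR, of far-red light signalling, had Col water levels of 8.38, 8.47, 8.54 and 8.93 against 7.47 ± 0.23 in Col with BTH and means of 6.73 to 7.01 in the mutant groups, without overlap.

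Both cell wall genes had Col with BTH as the second highest group. EXPB1 stood at 9.25, 9.22, 8.87 and 9.46 in Col water and at 7.81, 7.47, 7.93 and 8.08 in Col with BTH. In mil4 with BTH it was 6.88, 6.83, 4.69 and 6.98, where replicate 3 lay under an intensity of 16 and far from the other 3. GH9C2 averaged 10.80 ± 0.33 (SD, n = 4) in Col water, 9.47 ± 0.43 in Col with BTH and 8.66 to 8.96 in the 4 mutant groups. AT1G60590, for which no function is given here, averaged 8.78 ± 0.24 in Col water and 6.58 to 7.23 in the others.

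The transporter gene AT3G21670 had stepped levels. It was 10.59, 10.68, 10.55 and 10.53 in Col water. Col with BTH (9.63, 9.21, 9.17 and 9.16) and mil4 water (9.35, 9.12, 9.47 and 9.24) shared a middle level, and sid2 (8.33 to 8.51), mil4 with BTH (7.78 to 8.34) and mil4 sid2 (7.62 to 8.14) were lower. Col water did not overlap any group, nor did the middle pair overlap the lower groups.

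AT2G15020 was the member with the smallest margin and the 1 member of 41 whose Col water arrays overlapped another group. Its levels were 8.04, 8.60, 8.50 and 8.67 in Col water and 8.80, 5.97, 7.38 and 7.63 in Col with BTH, so Col BTH replicate 1 exceeded all 4 Col water arrays. In the 4 mutant groups it averaged 4.34 to 5.05, near or under an intensity of 16. The other 40 members had every Col water array above all 20 other arrays, a pattern held by 2.44% of the 12637 probe sets with a Col water mean of at least 7, and one that the choice of members favours.

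**Figure D1:**
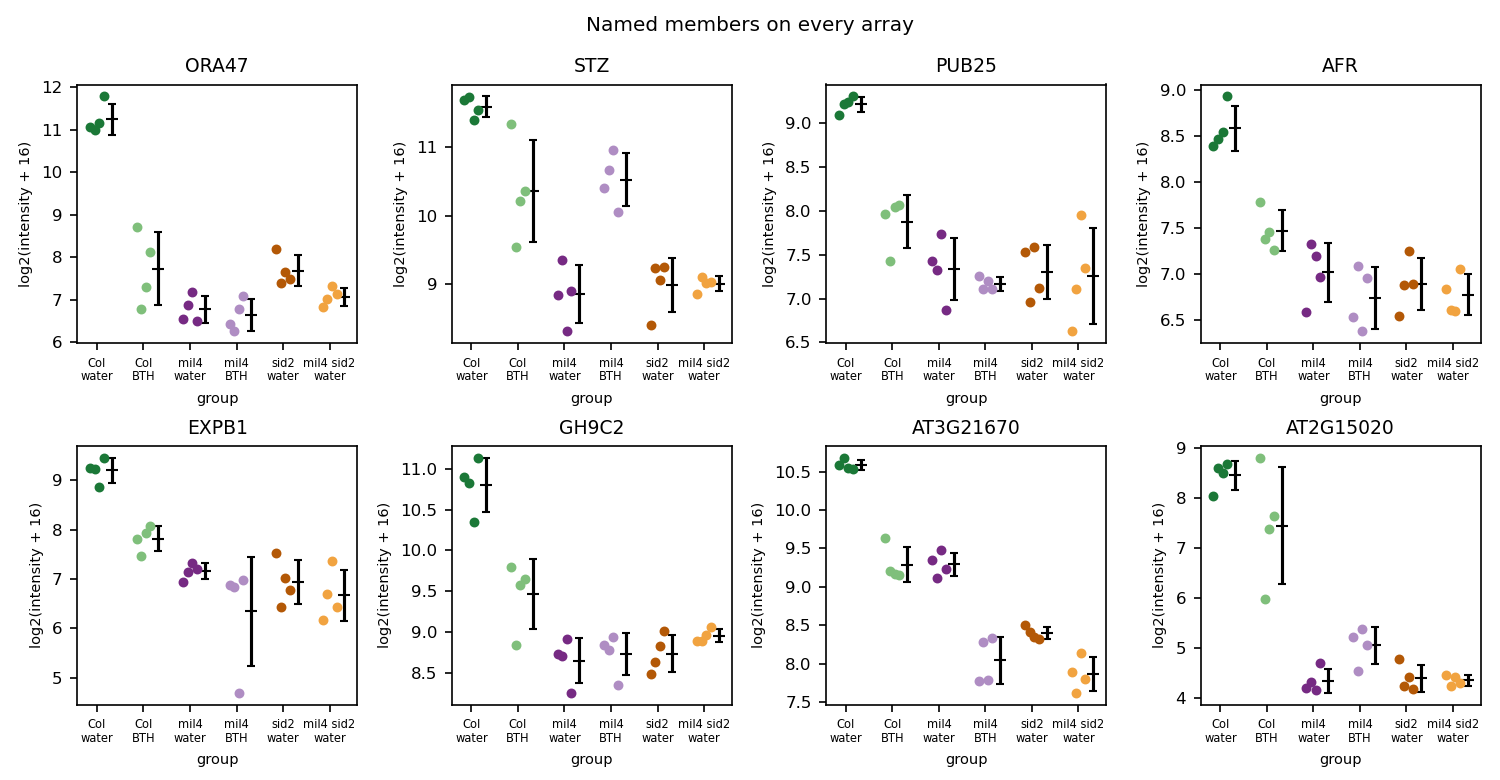
Level of 8 named members on every array, as log2(intensity + 16) on the vertical axis, by group on the horizontal axis. Points are single arrays (replicates 1 to 4 from left to right) and bars give the mean ± SD of 4 arrays. The Col water mean is highest in all 8 panels, STZ is also high in mil4 with BTH, and AT2G15020 spreads from 5.97 to 8.80 in Col with BTH.

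Of the remaining named members, AT1G78070 had the widest margin after ORA47 among those with a gene name. It averaged 9.98 ± 0.29 (SD, n = 4) in Col water, with a margin of 1.89, and AR781 11.32 ± 0.36 with a margin of 1.32. AT1G20823 (8.77 ± 0.09), AT5G02230 (9.25 ± 0.21), AT4G29780 (10.01 ± 0.22), AT1G76240 (10.04 ± 0.32) and AT5G41900 (7.62 ± 0.38) had margins of 1.11 to 1.31. Among the probe sets without a gene name, 252607_at (8.67 ± 0.68) and 254066_at (8.72 ± 0.16) had margins of 2.25 and 2.13, the next after ORA47. The 16 named genes lie on all 5 chromosomes in the RefSeq gene order (assembly TAIR10.1), and the nearest pair of these is 129 protein-coding genes apart. The positions of the other members were not looked up, so neighbours among them would be missed.

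**Figure D2:**
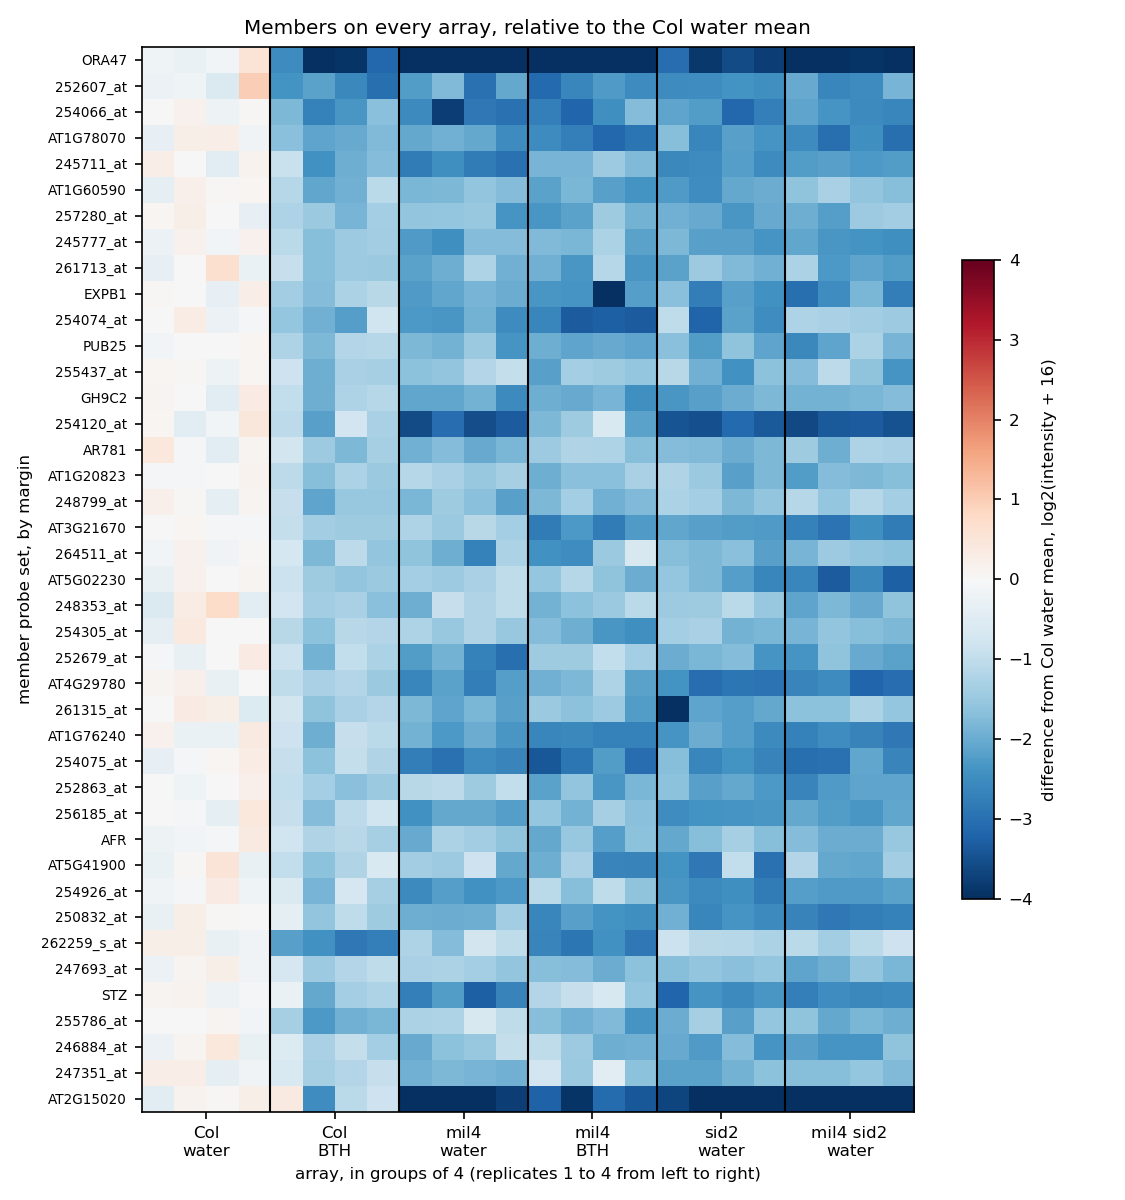
Each row is 1 of the 41 members, in order of margin from the widest at the top, and each column is 1 array. Colour gives the difference from the member's Col water mean in log2(intensity + 16), with colours saturating at 4 units. Col BTH replicate 1, the left column of its group, is paler than the other Col BTH columns in most rows.

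The margin over all members had a median of 1.28 and ran from 1.01 to 3.51. It was at least 1.5 for 6 members and at least 2 for 3. The median member was 2.52-fold higher in Col water than in Col with BTH, 3.67-fold higher than in mil4 water, 3.79-fold higher than in mil4 with BTH, 4.33-fold higher than in sid2 and 4.09-fold higher than in mil4 sid2. Over all 22746 probe sets the median differences from these groups lay between -0.09 and 0.00 in log2.

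Close to the limits of the choice the values were continuous. Just inside the margin lay AT2G15020 (1.01), 247351_at (1.01) and 246884_at (1.04), and just outside lay 260957_at (just under 1), 264252_at (0.98) and AT3G56880 (0.98). On the limit of level, AT5G41900 (Col water mean 7.62) and 254074_at (7.86) were the dimmest members, and 253259_at (6.91) and AT1G01250 (6.88) missed it.

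The same choice applied to each group in turn gave 0.324% of the 12637 probe sets that reached a mean of 7 in Col water, which are the 41 members. It gave 129 probe sets for mil4 with BTH (0.995%), 3 for Col with BTH (0.0234%), 3 for mil4 sid2 (0.0236%), 1 for mil4 water (0.00794%) and 0 for sid2 (0%). Of the probe sets with a Col water mean of at least 7, 268 were at least 1 above mil4 water, 425 above sid2, 458 above mil4 sid2, 425 above mil4 with BTH and 155 above Col with BTH. The 3 water-treated mutants together left 179, mil4 with BTH reduced these to 120, and Col with BTH reduced them to 41.

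Col with BTH was the intermediate group on average, but not for every member. It was the highest of the 5 other groups for 27 members, mil4 water for 7, mil4 sid2 for 4, mil4 with BTH for 2 and sid2 for 1. Col with BTH was the lowest for 0, whereas mil4 sid2 was the lowest for 13, mil4 with BTH for 11, mil4 water for 9 and sid2 for 8. These orders were not counted over all probe sets. Averaged over the 41 members, the level was 9.67 ± 0.07 (SD, n = 4 arrays) in Col water, 8.22 ± 0.34 in Col with BTH, 7.64 ± 0.05 in mil4 water, 7.60 ± 0.07 in mil4 with BTH, 7.49 ± 0.10 in sid2 and 7.48 ± 0.05 in mil4 sid2. The arrays of the last 4 groups overlapped, apart from mil4 water and mil4 sid2: the 4 mil4 water arrays (7.58 to 7.70) lay above those of the double mutant (7.42 to 7.55).

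The Col BTH arrays differed from each other on the members as a whole, which the choice did not use. The mean over the members was 8.64, 7.81, 8.18 and 8.25 on replicates 1 to 4. Replicate 1 was the highest of the 4 arrays for 32 of the 41 members, against 26.2% of all probe sets with a Col water mean of at least 7, and replicate 2 was the lowest for 29, against 30.04%. Against the Col water mean, the median member was 0.94 lower on replicate 1, 1.73 on replicate 2, 1.28 on replicate 3 and 1.33 on replicate 4. On replicate 2 all 41 members were at least 1 below the Col water mean, and on replicate 1, 16 were. Without Col BTH replicate 1 the same choice gave 51 members, and without replicate 2 it gave 31.

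**Figure D3:**
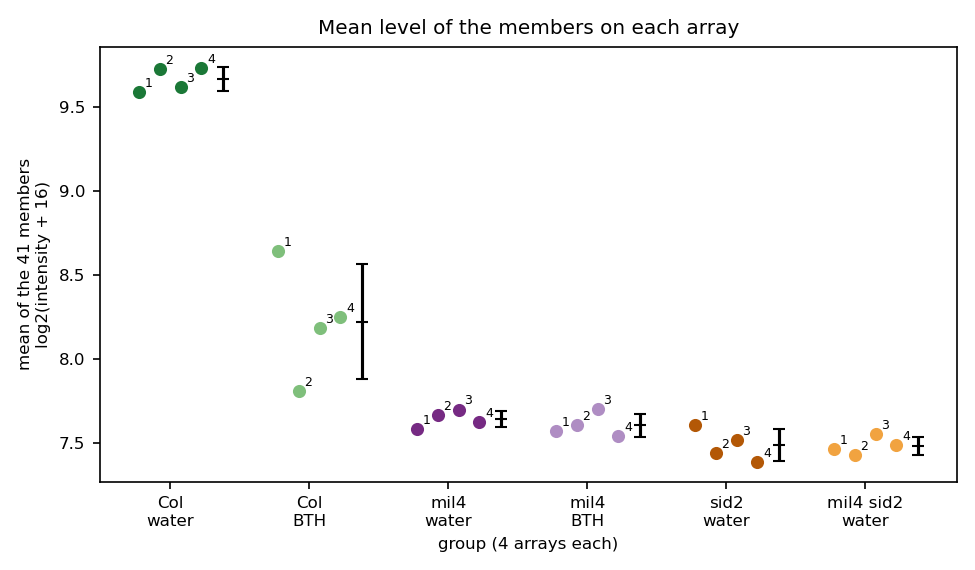
Mean of the 41 members on each array, as log2(intensity + 16), by group. Numbered points are arrays with their replicate number, and bars give the mean ± SD of 4 arrays. The 4 Col BTH arrays run from 7.81 to 8.64, while each other group spans a narrow range.

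Members moved together from array to array mainly within the Col BTH group. After the group means were taken out, the correlation of a member with the mean of the other 40 had a median of 0.41 over 24 arrays (from -0.09 to 0.89) and exceeded 0.5 for 14 members. For the other probe sets with a Col water mean of at least 7 the median correlation with the members was 0.00, and 1.49% exceeded 0.5. AT2G15020 (0.89), ORA47 (0.78) and STZ (0.56) were among the most strongly correlated, and EXPB1 (0.01) was not correlated. The values rest on the Col BTH arrays: within those 4 arrays the median was 0.83, and without them it was 0.11 over 20 arrays. On the 4 Col BTH arrays 37 members exceeded 0.5, as did 27.6% of the other probe sets. Without them 2 members did, against 2.82%. Within the 4 Col water arrays the median was 0.24, with 13 members under 0. Arrays share hybridization and scaling, and these correlations are a description.

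Col water and Col BTH arrays of the same number shared a hybridization run but no fluidics module, so module and treatment cannot be told apart in that contrast. In these pairs the median member was higher with water by 0.92, 1.79, 1.34 and 1.42 for replicates 1 to 4, and 40, 41, 41 and 41 of the members were higher with water, the exception being AT2G15020 in replicate 1. Col water also shared 3 hybridization days with Col BTH and both mil4 groups. Within days 1, 2 and 3 the median member was 1.21, 0.92 and 1.68 above the highest of these 3 groups, and 41, 40 and 41 members were above it. The choice of members used these same arrays and largely fixed the counts by pair and by day, so they are a description.

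Part of the members differed between BTH and water in mil4, some toward the Col water level and some further below it. STZ rose 3.18-fold from water to BTH (log2 fold change 1.67, SE 0.29, adjusted p = 0.000314, limma, n = 4 arrays per group), and the unnamed 254120_at, with mil4 levels of 8.06 to 8.58 with water and 9.49 to 11.01 with BTH, rose 3.69-fold (1.88, SE 0.28, adjusted p = 8.37e-05). AT4G29780 was 1.57-fold higher (0.65, SE 0.20, adjusted p = 0.0301). AT3G21670, the NPF6.4 transporter gene, fell 2.38-fold (-1.25, SE 0.14, adjusted p = 4.27e-06) and AT1G78070 was 1.63-fold lower (-0.70, SE 0.20, adjusted p = 0.0181). ORA47 (-0.14, SE 0.31, adjusted p = 0.837) and PUB25 (-0.17, SE 0.22, adjusted p = 0.693) did not pass, and both lay below every Col water array on all mil4 arrays.

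In this comparison 14 of the 41 members passed an adjusted p of 0.05, 34.1% against 17.4% of all probe sets. Of these, 8 were higher with BTH (9.67% of all probe sets) and 6 lower (7.77%), and the median member was at -0.17, against 0.05 over all probe sets. After quantile normalization 6 members were higher with BTH and 10 lower, as were 1753 and 2135 of all probe sets. The members all had a Col water mean of at least 7, whereas the shares over all probe sets include dim ones. Among probe sets with a mean above the median, fitted alone, 17 members and 4114 probe sets passed. That fit held fewer probe sets and fewer members, so these counts have a smaller base. The 17.4% is thus not the share of equally bright probe sets. Shares over all probe sets in the other comparisons have the same limit. All 14 kept their direction within each of days 1, 2 and 3. The mil4 water and mil4 BTH arrays shared no fluidics module, so module and treatment cannot be told apart within mil4. With module as a block, which only the sid2 and mil4 sid2 arrays made estimable here, 6 members passed. AT4G29780 lost its call without mil4 water replicate 1 (adjusted p = 0.0845) or 3 (0.103), without mil4 BTH replicate 2 (0.0513) or 3 (0.143), with module as a block (0.429) and under quantile normalization (0.0676). AT1G78070 lost its call without mil4 water replicate 2 (0.0558) or mil4 BTH replicate 3 (0.0777), and with module as a block (0.235).

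After BTH, 12 members were lower in mil4 than in Col and 0 higher. AT2G15020 was 5.27-fold lower (log2 fold change -2.40, SE 0.36, adjusted p = 0.000648, limma, n = 4 arrays per group), with levels of 4.54 to 5.37 in mil4, where the pseudocount of 16 understates the fold in intensity. AT1G76240 was 2.75-fold lower (-1.46, SE 0.20, adjusted p = 0.000297), with 7.32 to 7.45 in mil4 and 8.09 to 9.21 in Col. AT3G21670 was 2.37-fold lower (-1.25, SE 0.14, adjusted p = 0.000172) and AT1G78070 1.93-fold lower (-0.95, SE 0.20, adjusted p = 0.00939). EXPB1 (-1.47, SE 0.37, adjusted p = 0.0294), AFR (-0.73, SE 0.19, adjusted p = 0.0375) and GH9C2 (-0.73, SE 0.20, adjusted p = 0.0468) passed narrowly. ORA47 (-1.09, SE 0.31, adjusted p = 0.0593) and PUB25 (-0.71, SE 0.22, adjusted p = 0.0952) were on the same side and did not pass, nor did STZ (0.16, SE 0.29, adjusted p = 0.876).

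Of the 41 members, 12 passed, 29.3% against 3.29% of all probe sets. All 12 were lower in mil4 (1.82% of all probe sets) and 0 were higher (1.46%), with 20 members at an unadjusted p under 0.05. The median member was at -0.50, against 0.03 over all probe sets, and 39 of 41 were lower. The choice of members required Col water to exceed both mil4 groups, and all probe sets were not chosen in this way. It may thus favour members that are lower in mil4 than in Col, and the excess over all probe sets was not tested. Among probe sets with a mean above the median, fitted alone, 10 members and 1032 probe sets passed, out of fewer members and fewer probe sets. The 3.29% is thus not the share of equally bright probe sets. Within each of days 1, 2 and 3, and in the 1 run that held both groups, all 12 kept their direction. With run as a block 2 members passed, and AT2G15020 (adjusted p = 0.057), AT1G78070 (0.156), EXPB1 (0.0634), AFR (0.232) and GH9C2 (0.13) did not. EXPB1 also lost its call without Col BTH replicate 1 (0.0738), 3 (0.0838) or 4 (0.0937), or mil4 BTH replicate 3 (0.0612), with a pseudocount of 1 (0.0641) and in the fit without the Col water arrays (0.0506). AFR lost its call under quantile normalization (0.0725), with day as a block (0.0601), with the replicate number as a block (0.0504), and without Col BTH replicate 1 (0.14), 3 (0.0886) or 4 (0.0502), or mil4 BTH replicate 1 (0.115) or 3 (0.151). GH9C2 lost its call in 22 of 34 other settings, with an adjusted p of up to 0.165.

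**Figure D4:**
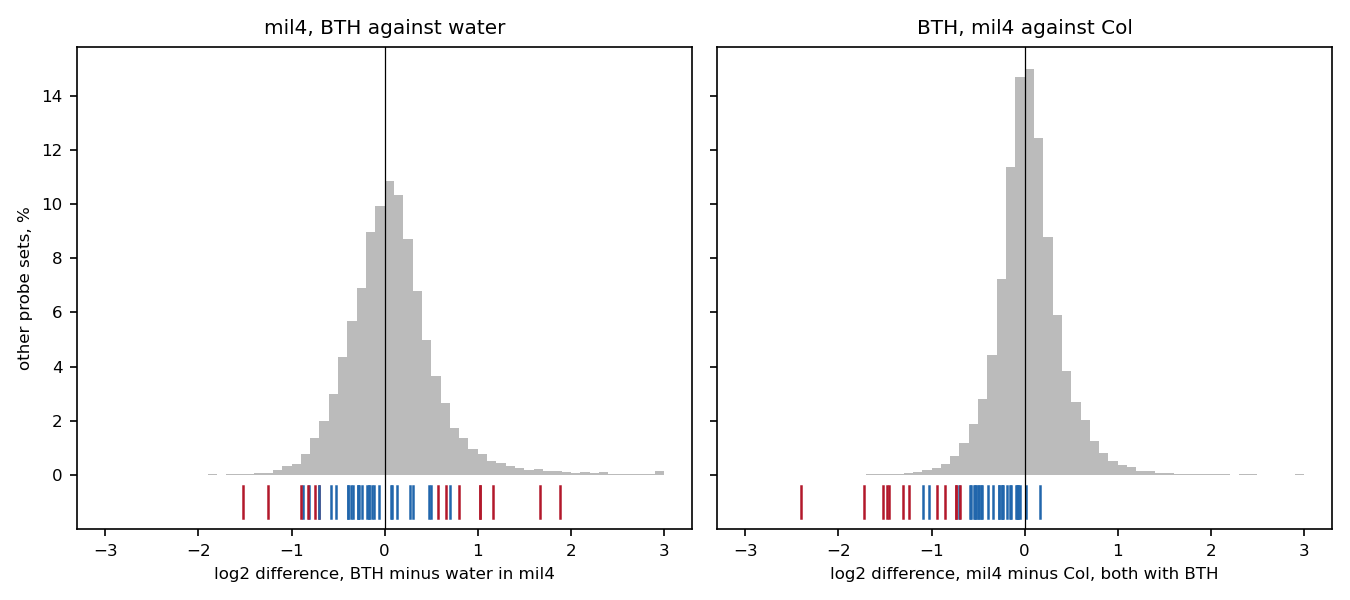
Log2 differences of the 41 members (ticks below 0 on the vertical axis, red where the limma adjusted p is under 0.05 and blue otherwise) beneath the histogram of all other probe sets (grey, percent per bin of 0.1, with values beyond 3 placed in the end bins). Left, BTH against water in mil4, where 8 members are red on the right and 6 on the left. Right, mil4 against Col with BTH, where all 12 red ticks lie on the left.

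With water, 5 members were lower in mil4 sid2 than in mil4. AT5G02230 was 3.15-fold lower in mil4 sid2 than in mil4 with water (log2 fold change -1.66, SE 0.23, adjusted p = 0.000183, limma, n = 4 arrays per group). Its levels were 7.90, 7.81, 7.94 and 8.23 in mil4 and 5.92 to 6.69 in the double mutant, without overlap. AT3G21670 was 2.70-fold lower (-1.43, SE 0.14, adjusted p = 4.64e-06). Together with 3 unnamed probe sets, 5 members passed (12.2%, against 5.57% of all probe sets), all lower (2.82% of all) and 0 higher (2.75%). These groups were hybridized on different days, so day and genotype cannot be told apart.

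Few members passed between the other water-treated mutants. Between mil4 and sid2 with water, 2 members passed (4.88%, against 1.57% of all probe sets), both higher in mil4 (1% of all), and 0 were lower (0.567%). They were AT3G21670 (log2 fold change 0.90, SE 0.14, adjusted p = 0.00232) and the unnamed 252863_at (0.89, SE 0.18, adjusted p = 0.0164). These groups too were hybridized on different days. Under quantile normalization 276 probe sets were higher in mil4 and 94 lower, against 228 and 129 without it. Without mil4 water replicate 2 or 4, or sid2 replicate 4, 1 member passed. Between mil4 sid2 and sid2, 0 of 41 passed in limma, against 0.47% of all probe sets (0.198% higher and 0.273% lower), with 6 members at an unadjusted p under 0.05 and member differences from -0.89 to 1.09. ORA47 was at -0.61 (SE 0.31, adjusted p = 0.489) in that comparison and at -0.91 (SE 0.31, adjusted p = 0.155) between mil4 and sid2. Without sid2 replicate 4, 1 member passed between mil4 sid2 and sid2. The means of the 3 water-treated mutants lay within 0.5 of each other for 24 of the 41 members.

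Across the 5 groups other than Col water as a whole, 29 members differed in limma's F-test (70.7%, against 28.4% of all probe sets), STZ (adjusted p = 5.62e-05) and ORA47 (0.0199) among them. PUB25 (0.102), AR781 (0.11) and AT1G20823 (0.119) did not pass. Among probe sets with a mean above the median, fitted alone, 24 members and 6302 probe sets passed the F-test, out of fewer members and fewer probe sets. The 28.4% is thus not the share of equally bright probe sets. Of the 5 pairwise comparisons, which share arrays, AT3G21670 passed in 4.

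The 13 lists of stress, hormone, clock and growth genes with a measured gene held 59 measured genes. Of these, 3 were members (ORA47, STZ and PUB25), 13 had a Col water mean above all 5 other groups, and the median margin was -0.61. The 24 members without a gene name could not be matched to the lists, so the counts of members on them are minimum counts. Over all 22746 probe sets, of which 41 were members, the margin was above 0 for 15.4% and had a median of -0.31. In the AP2/ERF list, 4 of 45 genes were measured and ORA47 was the 1 member among them. The zinc finger list had STZ as its 1 measured gene of 27.

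Ubiquitin ligase genes were split. Of 8 measured genes on that list of 25, PUB25 was a member, and PUB26, its close relative, missed the margin at 0.77, with means of 9.75 in Col water, 8.98 in Col with BTH, 8.46 in mil4 water, 8.20 in mil4 with BTH, 7.57 in sid2 and 7.64 in mil4 sid2. PUB26 was lower in mil4 than in Col after BTH (log2 fold change -0.78, SE 0.21, adjusted p = 0.0415, limma) and lower in mil4 sid2 than in mil4 (-0.81, SE 0.21, adjusted p = 0.0235). PUB24 went the other way, with a margin of -0.72 and a rise with BTH in mil4 (0.98, SE 0.18, adjusted p = 0.000498).

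On the growth list 15 of 43 genes were measured, 0 of these were members and 3 had a margin above 0. The list does not hold the cell wall members EXPB1 and GH9C2. The closest was EXPA8, an expansin gene, at a margin of 0.92. Its mean was 11.56 in Col water, 10.64 in Col with BTH, 10.50 in mil4 sid2, 9.14 in sid2, 8.96 in mil4 with BTH and 8.77 in mil4 water. EXPA8 was higher in mil4 sid2 than in sid2 (log2 fold change 1.36, SE 0.25, adjusted p = 0.0158, limma) and than in mil4 (1.73, SE 0.25, adjusted p = 0.000248). EXPB3, another beta-expansin gene, had a margin of 0.69 and was lower in mil4 than in Col after BTH (-0.70, SE 0.17, adjusted p = 0.0195). Other genes of the list went the other way, with margins of -2.73 for EXLA1, -2.64 for XTH33, -2.44 for EXO and -1.29 for EXLA2. EXLA1 averaged 9.80 in Col water and 12.53 in mil4 water.

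On the jasmonate list, 5 of 45 genes were measured and the 1 margin above 0 was that of OPCL1, a gene of jasmonate synthesis, at 0.15. Of 7 measured calcium sensor and touch genes 1 had a margin above 0, and CML37 and CML41 rose with BTH in mil4 by 2.19 (SE 0.33) and 2.64 (SE 0.30) on the log2 scale (limma adjusted p = 9.91e-05 and 4.4e-06). Of 4 measured cold genes, COR15A (0.34) and COR15B (0.27) had small positive margins, and 3 of 4 fell with BTH in mil4. The 2 measured genes of the salicylic acid list, SAG101 and GRX480, had margins of -1.39 and -1.32, and both rose with BTH in mil4 (1.03, SE 0.23, adjusted p = 0.00275, and 1.49, SE 0.27, adjusted p = 0.000486).

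Among the 2383 other named probe sets with a range of at least 1 over the groups, UGT78D1, a glycosyltransferase gene of flavonol synthesis, had the profile most like the mean of the members over the 6 group means (Pearson's r = 0.998). It averaged 9.12 in Col water, 8.47 in Col with BTH and 8.12 to 8.16 in the 4 mutant groups, a margin of 0.66. AT5G01790 (r = 0.984), AT5G16200 (0.981), GH9B8 (0.980), of the same glycosyl hydrolase family as GH9C2, and AT5G02180 (0.975) came next, with margins of 0.63 to 0.95. These correlations are over 6 points each and are a description.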

How the data were processed

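The deposited table gives a linear intensity for each of 22810 probe sets on 24 arrays. From the values, the authors had scaled each array to a 2% trimmed mean of 500.0, and the labels name no software, background correction or probe summary. Per the file headers of the deposited scan settings, arrays fell into 4 days, 8 runs and 4 modules, which served as batches. The 64 Affymetrix controls were left out. Of the 22746 probe sets tested, 13513 had 1 gene name in the platform annotation, 503 several and 8730 none.

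Intensities were taken as log2(intensity + 16) with no rescaling. Differences were fitted with limma 3.58.1 in R 4.3.3 (1 mean per group over all 24 arrays, contrasts, eBayes, 2-sided, Benjamini-Hochberg over all probe sets within a comparison, threshold 0.05), and the fit was tested on simulated data. The precision is that of 4 arrays per group. Arrays correlated at 0.953 to 0.981 within groups and none were identical. Members, lists (16 lists, 481 entries) and tests were chosen with earlier results of these data known. Named were all members with 1 gene name, list genes within 0.3 of the margin or past the threshold in a tested comparison (part of them is described), and the 5 most alike profiles. Unnamed members shown were chosen after their values were seen.

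Deviations of same-numbered arrays correlated at 0.17 to 0.34 for Col water and Col BTH, which shared runs, so those numbers pair the arrays; that contrast was not tested. In every tested comparison at least 1 pair lay under 0.1. Alternatives were quantile normalization, pseudocounts of 1 and 64, a filter on dim probe sets, day, run, module and replicate blocks, array weights, a fit without Col water, and each array left out. Day and run were fixed blocks where estimable and random ones otherwise. Tables and plots were made in Python 3.11.15 (pandas 2.3.3, matplotlib 3.10.9). No sequence is shown, since no sequence table was used here.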

Additional observations from a re-analysis of the deposited data

Results flagged for a closer look

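In 102 groups of 4 arrays (16 named members and the mean of all members, in 6 groups each), 4 held an array far from the other 3 by Dixon's criterion, where chance gives about 5.1. EXPB1 was 4.69 on mil4 BTH replicate 3, against 6.83 to 6.98 on the others. PUB25 was 7.42 on Col BTH replicate 2, against 7.96 to 8.07. AT1G20823 was 6.52 on mil4 sid2 replicate 1, against 6.98 to 7.06. AT3G21670 was 9.63 on Col BTH replicate 1, against 9.16 to 9.21.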

How the results depend on the processing

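No called difference of a named member changed direction under the alternatives run. With BTH in mil4, 6 members passed with module as a block (1379 of all probe sets), and 10 to 16 members (2637 to 4207 of all) with an array left out, the lowest count of all being without mil4 BTH replicate 3. For mil4 sid2 against mil4, 8 members passed among the brighter probe sets, fitted alone, as did 1875 of those probe sets. With array weights 8 members (1857 of all) passed, and module as a block left 590 of all. Leaving out an array gave 4 to 7 members and 807 to 1422 of all, the lowest count of all being without mil4 sid2 replicate 2. For mil4 sid2 against sid2, 2 members passed among the brighter probe sets, fitted alone, as did 303 of those probe sets. Module as a block left 21 of all, and leaving out an array gave 0 to 1 members and 24 to 119 of all. For mil4 against sid2, 4 members passed among the brighter probe sets, fitted alone, as did 654 of those probe sets. Module as a block left 94 of all, and leaving out an array gave 1 to 3 members and 141 to 407 of all. For mil4 against Col with BTH, run as a block left 2 (151 of all), array weights gave 1196 of all, and leaving out an array gave 8 to 16 and 431 to 878. The choice gave 78 members at a margin of 0.8, 26 at 1.2, and 31 to 51 with an array left out. The median co-variation was 0.11 without the Col BTH arrays and 0.11 without both Col groups, alternatives chosen after seeing the data. With the replicate number as a block, 14, 5, 0, 2 and 10 members passed in the 5 comparisons in this order, 28 in the F-test, and the median co-variation was 0.42. Of all probe sets, 3968, 1253, 73, 336 and 688 passed with that block, and 6437 in the F-test. Same-numbered arrays shared runs within mil4 (water and BTH) and between sid2 and mil4 sid2, but in no tested comparison did all 4 pairs deviate together, and AFR (adjusted p = 0.0504) and GH9C2 (0.0685) lost their calls under this block. Other causes of these shifts were not tested. Dim probe sets near an intensity of 16, such as AT2G15020 in the mutants, limit what can be measured.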
